A study of Mus musculus with 6 samples.

Results

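The 40 genes described here build and edit chondroitin, dermatan and heparan sulfate, the sulfated sugar chains of cartilage proteoglycans. They were chosen by name: the linker, polymerase, sulfotransferase, epimerase, donor supply and sulfatase genes of the pathway. Earlier results of these data were known when they were chosen. Each of the 40 had 1 row among the 28812 genes of the deposited table. RNA came from cultured wild-type (wt) mouse chondrocytes, labelled as osteoarthritic (OA) and all given interleukin-1 beta (IL-1β), an inflammatory cytokine. A group of 3 libraries received vehicle and a group of 3 received mitochondria, which the series title ascribes to osteocytes. The labels give neither the age of the mice nor the dose and time of either agent. They do not say whether replicates were separate animals or cultures, so p-values measure only the spread between these libraries, which may be technical. No library without IL-1β was analysed here.

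Chains grow in the Golgi from UDP-sugars and from the sulfate donor PAPS. Xylosyltransferase starts a short linker on a serine of the core protein, and the next sugar added decides the chain: N-acetylgalactosamine opens chondroitin sulfate and N-acetylglucosamine opens heparan sulfate. Sulfotransferases and epimerases then modify the chain, and outside the cell sulfatases can trim heparan sulfate again. In cartilage, chondroitin sulfate on aggrecan holds water in the tissue, and heparan sulfate binds growth factors around the cell.

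Totals were 63547854 to 66293786 deposited counts per library. In a principal component analysis of log2 CPM, the first axis placed vehicle libraries at -56.75 to -30.39 and mitochondria libraries at 27.36 to 81.44. Vehicle replicate 1 was the vehicle library nearest the other group, and mitochondria replicate 1 the library farthest from it. Of 16 chondrocyte markers, all had reads, with a summed level of 239.2 to 276.8 FPKM (fragments per kilobase of transcript, scaled for depth) with vehicle and 200.5 to 235.9 with mitochondria. Of these 16, 2 were called higher and 3 lower (31.2%, against the 14.8% of all genes), with log2 fold changes of -1.22 to 0.69. Fibroblast markers (9 genes) summed to 1302 to 1502 and 1115 to 1309 FPKM, with 3 of 9 lower with mitochondria and none higher (edgeR, adjusted p under 0.05; 8.46% lower and 6.36% higher among all genes), and 5 of 9 lower with GC offsets. The 12 macrophage markers summed to 43.6 to 53.1 and 39.9 to 49.2 FPKM, and none passed by edgeR (3 were at an unadjusted p under 0.05, and DESeq2 called 2). Osteoblast and osteocyte markers summed to 2.28 to 3.26 FPKM with vehicle and 2.43 to 3.39 with mitochondria. Dmp1 and Sost, of this list, were at 0 in every mitochondria library. Of the 6 tested, 1 was called lower and none higher (16.7%, against the 14.8% of all genes). Their log2 fold changes ran from -2.31 to 1.34, with 3 above 0 and 3 below. Endothelial markers summed to at most 0.727 FPKM. The extraction text names an adipose source. The 4 adipocyte markers summed to 4.35 to 4.82 FPKM with vehicle and 2.54 to 2.62 with mitochondria, with Lep at 0 in all 6 libraries. Of the 3 tested, 1 was called lower and none higher (33.3%, against the 14.8% of all genes), and 1 was lower with GC offsets. All 3 log2 fold changes were below 0 (-1.36 to -0.03). The part of other cell types in the results below was not tested. In bulk RNA, fewer cells of a type and less RNA per cell cannot be told apart.

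Mitochondria libraries had less RNA for chondroitin initiators Csgalnact1 and Csgalnact2, the epimerases Dse and Dsel, the UDP-sugar transporter Slc35d1 and the heparan 6-O-sulfotransferase Hs6st2. Of these, Csgalnact2 changed sign (-0.69 to 0.05) with the GC offsets described below, and Slc35d1 lost its call (edgeR, adjusted p = 0.14). Mitochondria libraries had more for the UDP-glucuronate producer Ugdh, the PAPS synthase Papss1, the xylosyltransferase Xylt2 and the sulfatase Sulf2. The call of Sulf2 was also lost with GC offsets (edgeR, adjusted p = 0.075). Of 39 members tested by edgeR (Benjamini-Hochberg over 17290 genes, threshold 0.05), 4 rose, 6 fell and 29 did not pass. That is 25.6% called, against 14.8% of all genes tested (6.36% higher and 8.46% lower). Since the members were chosen with earlier results of these data known, such shares are no independent test of the pathway. The median log2 fold change of the 39 was -0.05, and of all genes 0.00. Chst13 did not pass the filter on low counts (0 to 18 counts) and was not tested. Called members were at 1.15 to 167 FPKM in group means, and their log2 fold changes ran from -1.26 to 0.63. Members not called were estimated at -0.59 to 1.12, the last being the rare transcript Chst3. FPKM of the groups did not overlap in 20 of 39 members (7 higher, 13 lower; 51.3%, against 40.1% of all genes, 15.1% higher and 25.0% lower).

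Calls depended on which libraries were kept, among the members and over the whole table. Hs6st2 alone passed without vehicle replicate 2 and again without vehicle replicate 3, so that no member rose and 1 fell. Over the whole table, 130 genes rose and 316 fell without vehicle replicate 2. Leaving out vehicle replicate 3 gave 132 and 310, against 1099 and 1463 with all 6 libraries. Without mitochondria replicate 3, 1 member rose (Papss1) and 3 fell (Csgalnact1, Dsel and Hs6st2). Without vehicle replicate 1, 4 rose and 4 fell. Mitochondria replicate 1 lay farthest from its group's median in 28 of the 39 members (52.5% of all genes), and without it all 10 calls held and Ugp2 and Sulf1 were added. Log2 fold changes of the 10 members kept their direction in all 6 such fits.

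**Figure D1:**
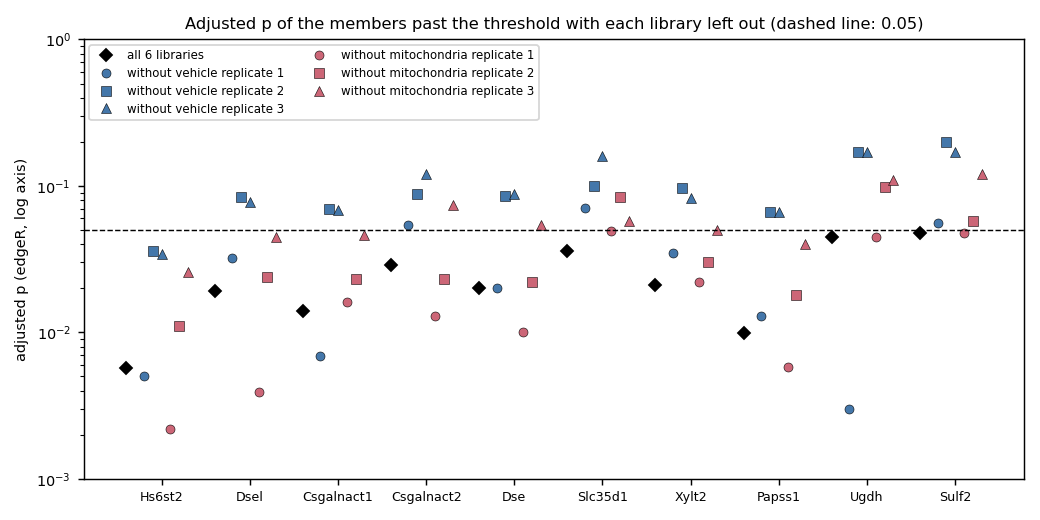
Adjusted p (vertical log axis, edgeR) of the 10 members past the threshold, with all 6 libraries (diamond) and with each library left out (blue, a vehicle library; red, a mitochondria library). Hs6st2 stays under the dashed line at 0.05 throughout, and the other 9 members lie above it without vehicle replicate 2 or 3.

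GC content moved with the fold changes over the whole table. Genes of 40% GC or less had a median log2 fold change of -0.70 (1034 genes) and genes above 60% one of 0.22 (726 genes). Across the 39 members, GC content and log2 fold change had a Pearson r of 0.37 (Spearman 0.31). These points share the same 6 libraries, and genes are not independent replicates. The 6 members that fell had a median GC content of 45.0%, and the 4 that rose one of 51.5%. With GC offsets, which subtract each library's smoothed trend on GC, r was -0.11. Then 5 members rose and 7 fell (30.8%, against 19.3% of all genes, 9.85% higher and 9.44% lower). Of the 10 calls, 7 held with the offsets: Xylt2, Papss1, Ugdh, Csgalnact1, Dse, Dsel and Hs6st2. Csgalnact2, Slc35d1 and Sulf2 lost theirs, and Ugp2, Uxs1, Chst7, Ndst2 and Hs6st1 gained one.

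**Figure D2:**
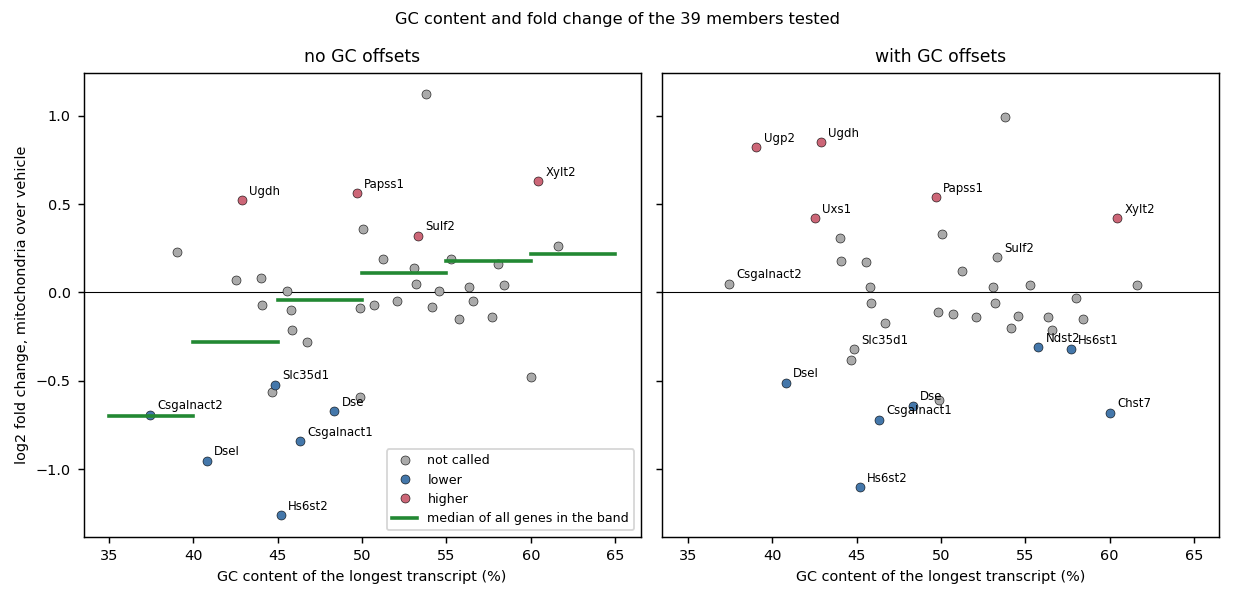
Log2 fold change (mitochondria over vehicle) of each of the 39 members against the GC content of its longest transcript, without (left) and with (right) GC offsets; blue and red points passed the test. On the left the median of all genes per GC band (green) climbs from -0.70 to 0.22, and Csgalnact2 sits at the median of its band.

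Among 4 genes of sugar donor supply, Ugdh rose and Slc35d1 fell. With GC offsets, 3 rose (Ugdh, Ugp2 and Uxs1) and none fell. Ugdh oxidises UDP-glucose to UDP-glucuronate, a building block of all these chains. Ugdh had the highest FPKM of the 40 members. It read 152, 109 and 104 FPKM in vehicle libraries and 157, 176 and 168 in mitochondria libraries. The groups did not overlap, though vehicle replicate 1 came close to mitochondria replicate 1. Ugdh rose by 0.52 ± 0.15 on the log2 scale (SE; adjusted p = 0.045, edgeR),, and once GC offsets were applied by 0.85 (adjusted p = 0.0065). Its call was lost without vehicle replicate 2 (adjusted p = 0.17), vehicle replicate 3 (0.17), mitochondria replicate 2 (0.098) or mitochondria replicate 3 (0.11). Ugp2, which makes UDP-glucose, read 56.2, 47.7 and 46.8 FPKM with vehicle and 39.2, 65.7 and 63.8 with mitochondria. Mitochondria replicate 1 was the lowest of all 6 libraries and the other 2 the highest. The estimate for Ugp2 was 0.23 ± 0.19 (adjusted p = 0.45), against 0.82 with GC offsets (adjusted p = 0.0019), and it passed without mitochondria replicate 1. Uxs1, which converts UDP-glucuronate to UDP-xylose, the sugar that starts the linker, was at 11.3 ± 1.24 and 11.3 ± 0.829 FPKM (SD, n = 3 each). The estimate for Uxs1 was 0.07 (adjusted p = 0.70, edgeR), against 0.42 with GC offsets (adjusted p = 0.027). Slc35d1, a transporter that brings UDP-sugars into the endoplasmic reticulum, read 1.67, 1.64 and 1.88 FPKM with vehicle and 1.12, 1.05 and 1.29 with mitochondria, with no overlap. It fell by 0.52 ± 0.13 (adjusted p = 0.036, edgeR), a call that held only without mitochondria replicate 1 (0.049) among the 6 fits with a library left out (0.058 to 0.16 in the others). With GC offsets Slc35d1 was at -0.32 (adjusted p = 0.14).

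Of 3 genes of sulfate supply, 1 rose, Papss1, and the others did not pass by edgeR. Papss1 and Papss2 each join sulfate to ATP and phosphorylate the product to PAPS. Papss1 read 29.9, 26.9 and 27.4 FPKM with vehicle and 42.3, 36.9 and 39.1 with mitochondria, so every mitochondria library exceeded every vehicle library. It rose by 0.56 ± 0.10 (log2, SE; adjusted p = 0.0099, edgeR), and once GC offsets were applied by 0.54, and missed the threshold without vehicle replicate 2 or 3 (adjusted p = 0.066 for each). Papss2, the synthase known for its role in skeletal growth, read 10.5, 10.4 and 11.7 FPKM with vehicle and 6.95, 11.3 and 10.6 with mitochondria. Only mitochondria replicate 1 was low, and the estimate was -0.10 with a 95% interval of -0.50 to 0.30 (adjusted p = 0.74). Papss1 accounted for 72.1% ± 2.0 of the summed FPKM of both genes with vehicle and 80.3% ± 4.93 with mitochondria. Slc26a2, the sulfate importer whose loss causes chondrodysplasia, was at 1.92 ± 0.255 and 1.24 ± 0.357 FPKM without overlap of the groups, and did not pass by edgeR (-0.56 ± 0.21, adjusted p = 0.11), although DESeq2 called it lower (adjusted p = 0.045).

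The promoters of Ugdh and Papss1, the supply genes that rose and kept the call with GC offsets, are printed from RefSeq (GRCm38.p6), 5′ to 3′, from 250 bases before to 50 after a transcription start. Of the 40 members, 32 matched an entry. The start nearest to the gene's start in the deposited table was taken (chr5:65435793-65436092, minus strand, 107 bases from that start; chr3:131564518-131564817, plus strand). Capitals mark every match, on either strand and with overlaps allowed, to a set of 6 short motifs. The GC box was searched as GGGCGG and the binding motif of nuclear factor Y as CCAAT. The motif near many focused start sites was searched as TATAAA, and the core of the antioxidant response element as TGACNNNGC. The E-box of bHLH factors was searched as CACGTG, and the AP-1 site as TGANTCA.
Ugdh: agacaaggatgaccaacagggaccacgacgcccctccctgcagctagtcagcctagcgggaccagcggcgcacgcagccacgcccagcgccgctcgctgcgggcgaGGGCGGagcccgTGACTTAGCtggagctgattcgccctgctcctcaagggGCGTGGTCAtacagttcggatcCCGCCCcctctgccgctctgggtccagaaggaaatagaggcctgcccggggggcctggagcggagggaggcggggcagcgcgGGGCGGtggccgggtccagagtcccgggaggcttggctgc
Papss1: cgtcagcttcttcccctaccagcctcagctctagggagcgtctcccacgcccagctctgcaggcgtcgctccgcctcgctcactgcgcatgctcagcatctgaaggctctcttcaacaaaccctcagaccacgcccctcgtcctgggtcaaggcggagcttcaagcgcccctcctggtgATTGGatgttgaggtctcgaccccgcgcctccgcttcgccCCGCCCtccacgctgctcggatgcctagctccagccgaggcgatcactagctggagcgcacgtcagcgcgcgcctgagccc
The Ugdh window holds 3 GC boxes and 2 matches to TGACNNNGC, and the Papss1 window 1 GC box and 1 CCAAT box. Of 32544 distinct promoter windows in the RefSeq table, 35.9% hold a GC box, 37.4% CCAAT, 13.6% TATAAA, 12.4% TGACNNNGC, 7.17% CACGTG and 7.79% TGANTCA. Among the 32 members with a window, 26 (81.2%) hold a GC box, 12 CCAAT, 2 TATAAA, 7 TGACNNNGC, 3 CACGTG and 1 TGANTCA. These matches describe the letters only.

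Of 5 linker genes 1 rose, Xylt2, and the median log2 fold change of the 5 was 0.19, or 0.04 with GC offsets. Xylt1 and Xylt2 both transfer the first xylose to the core protein. Xylt1 read 13.2, 12.4 and 13.2 FPKM with vehicle and 10.8, 12.4 and 11.9 with mitochondria, overlapping between groups (-0.07 ± 0.09, adjusted p = 0.64). Xylt2 read 9.08, 7.27 and 8.91 FPKM with vehicle and 14.5, 11.3 and 11.6 with mitochondria, with no overlap. It rose by 0.63 ± 0.14 (adjusted p = 0.021, edgeR), and once GC offsets were applied by 0.42 (adjusted p = 0.021). Leaving out mitochondria replicate 3 (adjusted p = 0.050), vehicle replicate 2 (0.096) or vehicle replicate 3 (0.083) ended the call. The share of Xylt2 in the summed FPKM of both was 40.7%, 36.9% and 40.4% with vehicle and 57.2%, 47.8% and 49.2% with mitochondria. The galactosyltransferases B4galt7 and B3galt6 and the glucuronosyltransferase B3gat3, which add the rest of the linker, were estimated at 0.19, 0.19 and 0.26 and did not pass (adjusted p = 0.41, 0.41 and 0.18). The estimate for B3gat3 was 0.04 with GC offsets.

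Of 6 chondroitin polymerisation genes, 2 fell, Csgalnact1 and Csgalnact2, and with GC offsets Csgalnact1 alone. Csgalnact1 and Csgalnact2 add the first N-acetylgalactosamine, which commits a linker to chondroitin sulfate, and Csgalnact1 is the main one in cartilage. Csgalnact1 read 5.11, 7.47 and 6.76 FPKM with vehicle and 2.94, 3.74 and 3.59 with mitochondria, all 3 below the lowest vehicle library. It fell by 0.84 ± 0.16 (log2, SE; adjusted p = 0.014, edgeR), or by 0.72 once GC offsets were applied (adjusted p = 0.0071). The call was lost without vehicle replicate 2 (0.069) or vehicle replicate 3 (0.068). Csgalnact2 read 9.03, 9.18 and 10.5 FPKM with vehicle and 4.21, 6.73 and 6.02 with mitochondria, again with no overlap. It fell by 0.69 ± 0.17 (adjusted p = 0.029). Its transcript has the lowest GC content of the 39 members, 37.43%, and with GC offsets the estimate was 0.05, in the opposite direction (adjusted p = 0.78). It also missed the threshold without vehicle replicate 1 (0.054), vehicle replicate 2 (0.088), vehicle replicate 3 (0.12) or mitochondria replicate 3 (0.074).

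Chpf, Chsy1 and Chpf2, polymerase subunits that lengthen the chain, had higher mean FPKM than either initiator in both groups. Chpf, the polymerising factor with the highest FPKM of the step, read 21.5, 19.3 and 20.7 FPKM with vehicle and 23.8, 20.8 and 20.7 with mitochondria, overlapping (0.16 ± 0.10, adjusted p = 0.33). Its partner synthase Chsy1 was estimated at 0.05 (95% interval -0.16 to 0.25) and Chpf2 at 0.04 (-0.25 to 0.33). Chsy3, a rarer synthase at 0.626 ± 0.135 and 0.396 ± 0.0626 FPKM, was lower in all 3 mitochondria libraries but did not pass (-0.59 ± 0.23, adjusted p = 0.12).

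None of the 7 chondroitin sulfotransferases tested passed by edgeR (3 were at an unadjusted p under 0.05, and DESeq2 called 1, Chst3). Chst11, the main 4-O-sulfotransferase of cartilage chondroitin, had the highest FPKM of them. It read 15.8, 15.5 and 17.1 FPKM with vehicle and 13.3, 15.7 and 14.5 with mitochondria, overlapping between groups (-0.09 ± 0.10, 95% interval -0.31 to 0.13, adjusted p = 0.60). Chst12, which acts on the same position, and Chst14, its counterpart for dermatan sulfate, were estimated at -0.05 (-0.31 to 0.22) and 0.03 (-0.24 to 0.29). The 6-O-sulfotransferases pointed in opposite directions without passing. Chst3, at 0.303, 0.162 and 0.176 FPKM with vehicle and 0.512, 0.304 and 0.522 with mitochondria, was estimated at 1.12 ± 0.34 (adjusted p = 0.062) from 76 to 243 counts per library. It passed without vehicle replicate 1 or mitochondria replicate 2. By edgeR, Chst3 also passed with upper-quartile factors (adjusted p = 0.048), counts divided by 4 (0.049), and GC and length offsets (0.045). It did not pass with GC offsets (0.064) or by limma on log2 FPKM (0.11 and 0.13). Chst7 was at 5.94 ± 0.643 and 4.06 ± 0.782 FPKM (-0.48 ± 0.18, adjusted p = 0.10), and fell by 0.68 with GC offsets (adjusted p = 0.018). Ust, which sulfates the uronic acid, was at 2.12 ± 0.328 and 2.59 ± 0.0698 FPKM (0.36 ± 0.15, adjusted p = 0.14), and Chst15, which adds a further sulfate to a sulfated galactosamine, at 1.57 ± 0.116 and 1.45 ± 0.102 (-0.05, adjusted p = 0.85). Fgfr2 overlaps Chst15 on the same strand at 5.56 FPKM. Chst13 stayed at or under 0.146 FPKM in all 6 libraries.

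Both dermatan epimerases fell. Dse and Dsel turn glucuronate of a chondroitin chain into iduronate, which makes it dermatan sulfate. Dse read 28.2, 34.8 and 34.6 FPKM with vehicle and 15.5, 22.1 and 20.8 with mitochondria. Dsel read 5.91, 7.19 and 6.63 FPKM with vehicle and 2.19, 3.80 and 3.73 with mitochondria. In both genes the groups did not overlap, and replicate 1 was the lowest library of each group. Dse fell by 0.67 ± 0.14 (log2, SE; adjusted p = 0.020, edgeR), and once GC offsets were applied by 0.64 (adjusted p = 0.0078). Dsel fell by 0.95 ± 0.20 (adjusted p = 0.019), and once GC offsets were applied by 0.51 (adjusted p = 0.011), so the offsets shrank the estimate of the AT-richer Dsel (40.81% GC) more than that of Dse (48.35%). Both calls were lost without vehicle replicate 2 (0.085 and 0.084) or vehicle replicate 3 (0.088 and 0.078), and that of Dse also without mitochondria replicate 3 (0.054). Their promoter windows are shown because this is the only step of which every member fell (chr10:34207186-34207485, minus strand, 480 bases from the start in the deposited table; chr1:111864869-111865168, minus strand); the same motifs are in capitals.
Dse: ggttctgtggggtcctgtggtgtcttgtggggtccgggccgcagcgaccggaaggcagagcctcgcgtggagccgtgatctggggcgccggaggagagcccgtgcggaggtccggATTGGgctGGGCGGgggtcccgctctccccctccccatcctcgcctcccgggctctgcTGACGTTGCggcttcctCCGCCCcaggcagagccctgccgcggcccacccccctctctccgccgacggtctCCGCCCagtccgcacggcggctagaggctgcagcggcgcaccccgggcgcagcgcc
Dsel: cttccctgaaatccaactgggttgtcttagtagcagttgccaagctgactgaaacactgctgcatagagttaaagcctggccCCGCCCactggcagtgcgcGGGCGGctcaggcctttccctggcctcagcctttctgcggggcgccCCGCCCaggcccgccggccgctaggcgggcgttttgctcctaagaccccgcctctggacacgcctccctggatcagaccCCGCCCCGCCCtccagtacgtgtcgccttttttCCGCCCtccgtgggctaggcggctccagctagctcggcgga
The Dsel window holds 6 GC boxes. The Dse window holds 3, with 1 CCAAT box and 1 match to TGACNNNGC. The Dse window has 75.3% GC and the Dsel window 66.0%, against a median of 53.0% over all windows.

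None of 4 heparan sulfate polymerisation genes passed by edgeR, by DESeq2 or at an unadjusted p under 0.05. Ext1, which with Ext2 forms the polymerase, read 28.8, 25.3 and 25.7 FPKM with vehicle and 23.4, 24.8 and 24.3 with mitochondria. The groups did not overlap in FPKM, but by under 1 FPKM, and the log2 fold change was -0.07 ± 0.09 (95% interval -0.27 to 0.13, adjusted p = 0.64). Ext2 was estimated at 0.14 (-0.05 to 0.33). Extl3, which opens the heparan chain on the linker, was at -0.08 (-0.28 to 0.13) and Extl2, which can cap it, at -0.21 (-0.46 to 0.04). All 4 intervals exclude a 1.5-fold change in either direction. The sign of Ext1 turned with GC offsets (0.18, adjusted p = 0.25), and with GC and length offsets Ext1 was called higher (0.41, adjusted p = 0.047). Extl3 was at 13.6 ± 0.946 FPKM with vehicle and 12.3 ± 0.521 with mitochondria, and whether its fold change differs from those of the chondroitin initiators was not tested.

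Among heparan-modifying enzymes 1 of 6 passed, Hs6st2, and it had the most negative log2 fold change of all members. Hs6st1 and Hs6st2 put sulfate on the 6-O position of glucosamine, a mark that many growth factors need to bind. Hs6st2 (ENSMUSG00000062184, X chromosome, 51387212 to 51681856, GRCm38) read 9.22, 12.1 and 12.1 FPKM with vehicle and 3.28, 5.08 and 4.88 with mitochondria. The highest mitochondria library lay below the lowest vehicle library by more than 4 FPKM. It fell by 1.26 ± 0.18 (log2, SE; 2.40-fold; adjusted p = 0.0057, edgeR), and once GC offsets were applied by 1.10 (adjusted p = 0.0015), and it passed in all 16 alternative fits. Hs6st1 read 7.64, 9.01 and 9.27 FPKM with vehicle and 7.93, 7.43 and 7.02 with mitochondria, overlapping (-0.14 ± 0.11, adjusted p = 0.42). With GC offsets Hs6st1 was at -0.32 (adjusted p = 0.047). Hs6st2 made up 54.7%, 57.4% and 56.6% of the summed FPKM of both genes with vehicle, and 29.3%, 40.6% and 41.0% with mitochondria, so it was the more abundant gene in every vehicle library and the less abundant in every mitochondria library.

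The promoter windows of the pair differ in composition (chrX:51681553-51681852, minus strand, 254 bases from the start in the deposited table; chr1:36068150-36068449, plus strand). The same motifs are in capitals.
Hs6st2: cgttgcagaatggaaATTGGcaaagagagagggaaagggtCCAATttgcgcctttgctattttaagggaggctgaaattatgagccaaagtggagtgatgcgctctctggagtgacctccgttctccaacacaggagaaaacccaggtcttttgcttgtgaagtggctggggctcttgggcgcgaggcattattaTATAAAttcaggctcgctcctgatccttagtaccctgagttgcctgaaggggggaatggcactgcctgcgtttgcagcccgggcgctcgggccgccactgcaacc
Hs6st1: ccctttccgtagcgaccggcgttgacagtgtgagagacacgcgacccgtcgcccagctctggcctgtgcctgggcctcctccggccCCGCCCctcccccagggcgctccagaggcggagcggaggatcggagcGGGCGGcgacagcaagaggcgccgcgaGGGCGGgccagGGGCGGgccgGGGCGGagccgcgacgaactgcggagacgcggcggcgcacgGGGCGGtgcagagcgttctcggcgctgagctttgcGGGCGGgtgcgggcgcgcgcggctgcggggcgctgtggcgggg
The Hs6st2 window has 53.7% GC, 12 CpG dinucleotides, no GC box, 2 CCAAT boxes and a TATAAA. The Hs6st1 window has 78.0% GC, 47 CpG dinucleotides and 7 GC boxes, and neither of the other motifs.

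The other 5 modifiers did not pass by edgeR without offsets. Ndst1, which exchanges acetyl for sulfate on glucosamine and opens the way for later steps, read 16.1, 14.5 and 14.9 FPKM with vehicle and 15.7, 14.2 and 13.5 with mitochondria, overlapping (0.01, 95% interval -0.22 to 0.23, adjusted p = 0.98). The ribosomal gene Rps14 overlaps it on the other strand at 249 FPKM, and no source used here states that counting used strand. Ndst2, its relative, was at 4.97 ± 0.256 and 4.25 ± 0.264 FPKM (-0.15, adjusted p = 0.37; -0.31 with GC offsets, adjusted p = 0.048). The epimerase Glce was estimated at 0.08 (-0.25 to 0.41) and the 2-O-sulfotransferase Hs2st1 at 0.01 (-0.19 to 0.22). With GC and length offsets, which also subtract the trend on transcript length, both were called higher (Glce 0.38, adjusted p = 0.027, and Hs2st1 0.32, adjusted p = 0.029).

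The extracellular sulfatases, which remove 6-O-sulfate from finished heparan chains, were among the most abundant members and pointed in opposite directions. Sulf2 read 48.0, 42.9 and 46.0 FPKM with vehicle and 58.2, 51.0 and 53.5 with mitochondria, with no overlap. It rose by 0.32 ± 0.09 (adjusted p = 0.048, edgeR), a call lost with GC offsets (0.20, adjusted p = 0.075) and without vehicle replicate 1 (0.056), vehicle replicate 2 (0.20), vehicle replicate 3 (0.17), mitochondria replicate 2 (0.058) or mitochondria replicate 3 (0.12). Ncoa3 overlaps Sulf2 on the other strand at 4.65 FPKM. Sulf1 read 36.0, 35.6 and 36.3 FPKM with vehicle and 25.9, 30.3 and 28.7 with mitochondria, also without overlap. It was estimated at -0.28 ± 0.09 and did not pass (adjusted p = 0.061), although it did without mitochondria replicate 1 and by DESeq2 (0.025). Sulf1 also passed with counts divided by 4 and by limma on log2 FPKM with either pseudocount, where Sulf2 lost its call. With GC offsets Sulf1 did not pass (-0.17, adjusted p = 0.077).

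**Figure D3:**
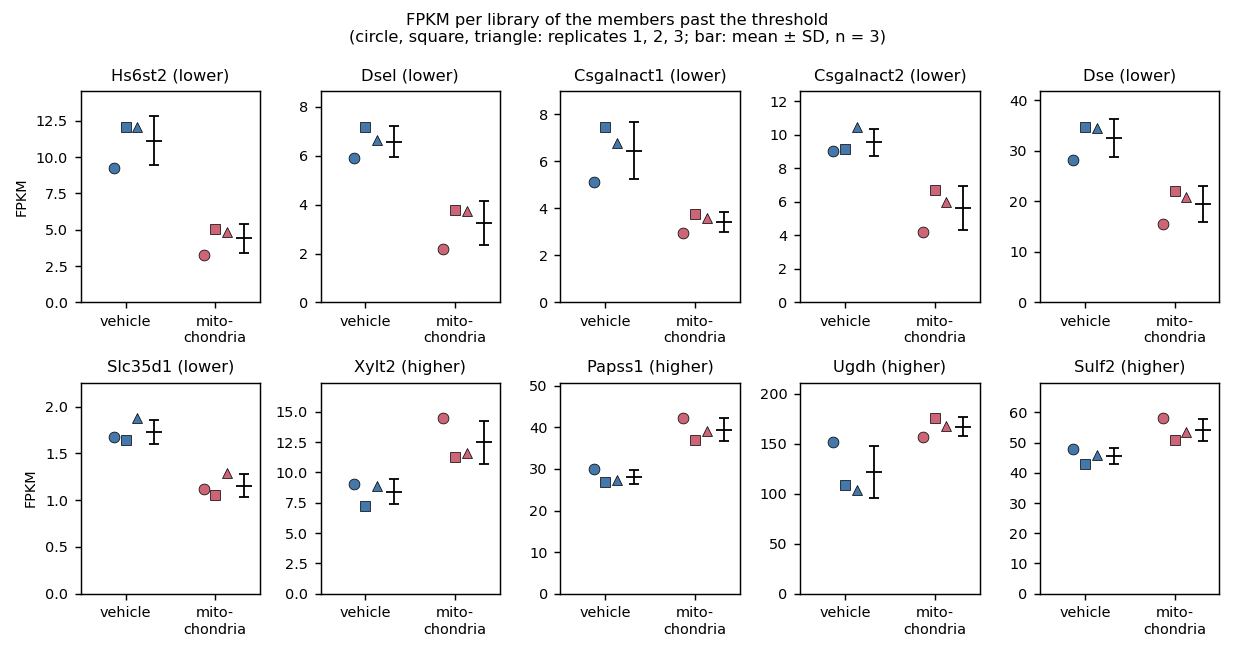
FPKM (vertical axis, from 0) in each library of the 10 members past the threshold, by group, with mean ± SD (n = 3). Groups do not overlap in any panel. Relative to the level, the gap is widest for Hs6st2 and narrowest for Ugdh, where vehicle replicate 1 (152) sits just under mitochondria replicate 1 (157).

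**Figure D4:**
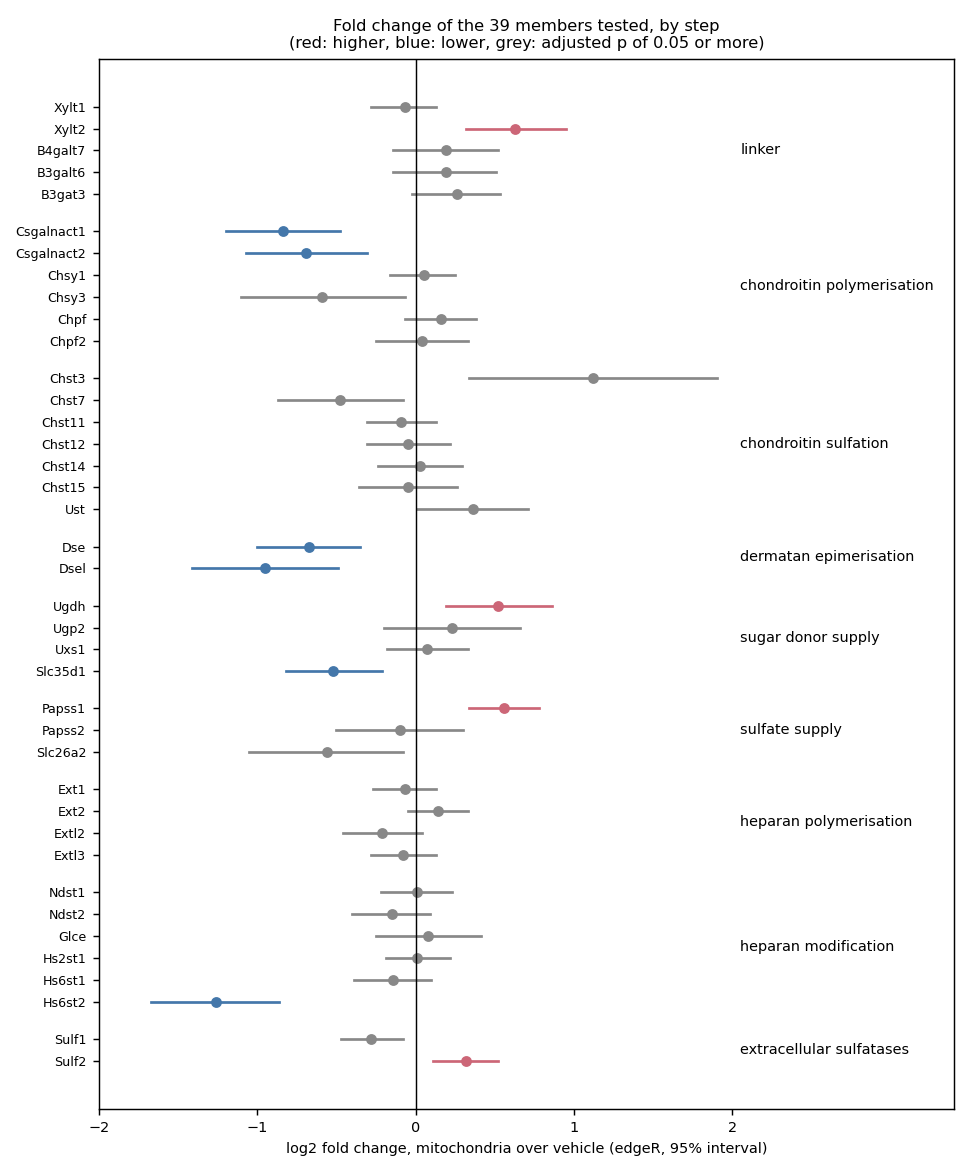
Log2 fold change, mitochondria over vehicle, with its 95% interval for the 39 members tested, ordered by step. Both epimerases and both chondroitin initiators lie left of 0 (blue; Csgalnact2 is at 0.05 with GC offsets), the 4 heparan polymerisation genes and most sulfotransferases straddle it (grey), and Chst3 has the widest interval (0.34 to 1.90).

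Balances within pairs of related enzymes were compared on FPKM, which is scaled per length. Of 8 pairs, 5 had shares that did not overlap between groups: Xylt2 with Xylt1, Dse with Dsel, Papss1 with Papss2, Hs6st2 with Hs6st1 and Sulf1 with Sulf2. For each of these the exact two-sided permutation p was 0.10, the smallest that 20 assignments allow, and 0.16 adjusted over the 8 pairs, so none can pass in this design. Among all single genes tested, FPKM of the groups did not overlap in 40.1%, and no share over other pairs of genes was computed. Hs6st2 moved most, from 56.2% ± 1.38 to 37.0% ± 6.67 of its pair. Xylt2 went from 39.3% ± 2.09 to 51.4% ± 5.05 and Sulf1 from 44.1% ± 1.22 to 34.3% ± 3.29. The share of Dse was 83.2% ± 0.662 and 85.9% ± 1.53, a small shift since both genes fell. Shares of Csgalnact1 with Csgalnact2 (40.1% ± 4.42 and 38.1% ± 2.76), Chst11 with Chst12 (54.3% ± 3.25 and 53.5% ± 2.96) and Ndst1 with Ndst2 (75.3% ± 1.83 and 77.3% ± 0.675) overlapped. Mitochondria replicate 1 was the most extreme library of its group in each of the 5 pairs that did not overlap.

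**Figure D5:**
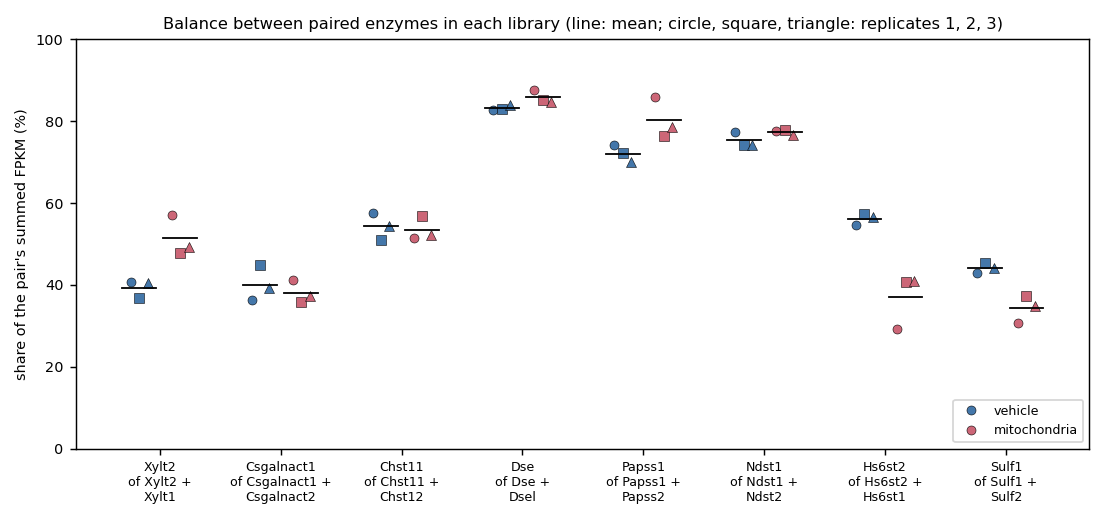
Share (%) of the first gene in the summed FPKM of each pair, per library, with group means as lines (blue, vehicle; red, mitochondria). The shares of Hs6st2 (54.7% to 57.4% against 29.3% to 41.0%) are farthest apart, and those of Csgalnact1 and Chst11 overlap.

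Other genes of the pathway were counted from 5 lists. These lists too were chosen with earlier results of these data known, so their shares called are no independent test. Of 24 core proteins and chain-bearing receptors tested, 5 rose and 4 fell, with a median log2 fold change of -0.07. That is 37.5% called, against 14.8% of all genes tested (6.36% higher and 8.46% lower). The syndecan Sdc2, a heparan sulfate carrier at the cell surface, read 92.4, 117 and 127 FPKM with vehicle and 42.9, 56.5 and 55.3 with mitochondria, and fell by 1.05 ± 0.14 (adjusted p = 0.0051, edgeR). It passed in all 6 fits with a library left out, and it fell by 0.64 with GC offsets (adjusted p = 0.0042). Versican (Vcan), a large chondroitin sulfate proteoglycan, fell by 0.97 ± 0.17 (adjusted p = 0.0098) and the betaglycan gene Tgfbr3 by 0.63 ± 0.11 (adjusted p = 0.0097). Agrin (Agrn), a heparan sulfate proteoglycan of basement membranes, rose by 0.78 ± 0.13 (adjusted p = 0.0093). Aggrecan (Acan), named here after its values were seen, was among those called higher (0.54, adjusted p = 0.041), but it missed the threshold in all 6 fits with a library left out and with GC offsets (adjusted p = 0.058). The call of Vcan was lost without vehicle replicate 3, and those of Tgfbr3 and Agrn without vehicle replicate 2 or 3.

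Of 10 further assembly and modification genes tested, none passed by edgeR (5 were at an unadjusted p under 0.05, and DESeq2 called 2). Of these 10, 4 had groups that did not overlap, near the 40.1% of all genes. Of 9 keratan sulfate assembly genes, 1 rose (11.1%, against 14.8% of all genes), the sialyltransferase St3gal1 (0.38 ± 0.11, adjusted p = 0.049). Of 22 other genes of sugar and sulfate donor supply, 3 rose and none fell (13.6%, close to the 14.8% of all genes). They were the phosphoglucomutase Pgm1 (0.57 ± 0.09, adjusted p = 0.0074), the glucosamine-phosphate acetyltransferase Gnpnat1 (0.41 ± 0.10, adjusted p = 0.030) and the galactokinase Galk1 (0.43 ± 0.12, adjusted p = 0.049). Without vehicle replicate 2 or 3, the calls of St3gal1, Pgm1, Gnpnat1 and Galk1 were lost, and with GC offsets those of St3gal1 (adjusted p = 0.059) and Galk1 (0.096).

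Of 19 genes that break the chains down, 4 rose and 2 fell, with a median of 0.21, or 0.07 with GC offsets. That is 31.6% called, against 14.8% of all genes tested (6.36% higher and 8.46% lower), in a list chosen with earlier results known. The hyaluronidase Hyal1, which also cuts chondroitin, was at 5.73 ± 1.36 and 11.0 ± 1.19 FPKM and rose by 1.01 ± 0.18 (adjusted p = 0.011, edgeR). The lysosomal acetyltransferase Hgsnat rose by 0.36 ± 0.09 (adjusted p = 0.028). The iduronate sulfatase Ids fell by 0.66 ± 0.15 (adjusted p = 0.022) and the glucuronate sulfatase Arsk by 1.04 ± 0.24 (adjusted p = 0.025); with GC offsets Ids did not pass (-0.25, adjusted p = 0.078) and Arsk was at -0.50 (adjusted p = 0.049). All 4 of these calls were lost without vehicle replicate 2 or 3.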

How the data were processed

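Per the labels' protocols, poly(A) RNA of mouse chondrocytes went into 6 libraries that were read from both ends. The authors deposited 1 table with 2 values per gene and library: FPKM, which the authors scaled for transcript length and depth, and estimated counts (also called expected counts), which the authors deposited rounded and without normalisation. Named in the submitters' processing notes, without roles, are Bowtie 0.12.2, HISAT2 2.0, StringTie 1.3.0 and build mm8. The coordinates in the table fit GRCm38: 25914 of the 28732 identifiers found in GENCODE M21 (90.2%) had the same start and end there. Among low counts, the values 4 (2.31 to 2.84 times as frequent as their neighbours) and 8 were over-represented, so a fragment seems to be worth about 4 counts. If so, depth was 15886964 to 16573446 fragments per library, and counting error is larger than the deposited counts imply.

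Counts were tested in R 4.3.3 with edgeR 4.0.16: TMM factors, filterByExpr (minimum count 10, which kept 17290 genes), and the quasi-likelihood F test of group, two-sided and without other terms. P-values were adjusted by Benjamini-Hochberg over every gene tested. The SE is the size of the log2 fold change divided by the root of its F statistic, and 95% intervals use the test's degrees of freedom. Replicate numbers are not stated to pair libraries. Alternatives used DESeq2 1.42.0, limma 3.58.1 on log2 FPKM, other scalings and filters, GC and length offsets (lowess, span 0.3, on the longest GENCODE transcript), a replicate block, and each library left out. The edgeR step was tested on simulated counts. Every member is named. Values in all libraries are given for members past the threshold and for the most abundant member of each step, and of other pathway lists the 4 smallest adjusted p-values at most. Hs3st2, Hpse2 and Mepe of those lists were not analysed here. The members and lists were chosen with earlier results of these data known.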

Additional observations from a re-analysis of the deposited data

How the results depend on the processing

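Higher and lower genes over the whole table (1099 and 1463) came to 1687 and 2175 with DESeq2, 357 and 507 without the filter on low counts, 1703 and 1632 with GC offsets, and 1691 and 1450 with GC and length offsets. Members higher and lower (4 and 6) came to 1 and 2 without the filter, 2 and 6 with limma on log2 FPKM with a pseudocount of 1 or 0.1, and 10 and 7 with GC and length offsets. With 1 library left out, 130 to 1086 genes rose and 310 to 1694 fell, and 0 to 5 members rose and 1 to 7 fell. Vehicle replicates 2 and 3 and mitochondria replicate 3 were the libraries whose absence moved these counts by over 1.5 times: without them 130, 132 and 398 genes rose and 316, 310 and 734 fell. Over the 16 alternatives, the calls held in 16 for Hs6st2, 14 for Csgalnact1 and Papss1, 13 for Dsel, 12 for Dse and Xylt2, 8 for Csgalnact2 and Ugdh, 6 for Sulf2 and 4 for Slc35d1.

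Log2 fold changes that changed sign were these. GC offsets gave Csgalnact2 0.05, Chsy1 -0.06, Chpf -0.03, Chpf2 -0.15, Chst14 -0.14, Papss2 0.03, Ext1 0.18 and Ndst1 -0.13. GC and length offsets gave Xylt1 0.17, B4galt7 -0.03, B3gat3 -0.05, Csgalnact2 0.14, Chsy1 -0.05, Chpf -0.07, Chpf2 -0.05, Chst14 -0.21, Papss2 0.01 and Ext1 0.41 (adjusted p = 0.047). Limma on FPKM with a pseudocount of 1 gave Chsy1 -0.02, Chpf2 -0.04, Chst14 -0.04, Ndst1 -0.06 and Hs2st1 -0.05, and with 0.1 it gave Chsy1 -0.02, Chpf2 -0.04, Chst14 -0.05, Ndst1 -0.06 and Hs2st1 -0.06. Upper-quartile factors gave Chst12 0.01 and Chst15 0.01. With 1 library left out, the estimates ran from -0.01 to 0.08 for Chsy1, -0.09 to 0.16 for Chpf2, -0.14 to 0.01 for Chst12, -0.03 to 0.11 for Chst14, -0.10 to 0.01 for Chst15, -0.01 to 0.16 for Uxs1, -0.24 to 0.09 for Papss2, -0.06 to 0.06 for Ndst1 and -0.03 to 0.05 for Hs2st1. Csgalnact2 was the only called member to change sign. The cause of these changes was not tested.

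Deviations of same-numbered libraries correlated at 0.0371, 0.00907 and -0.0152, and those of other pairs at -0.0314 to 0.0257. With so few libraries per group, these values cannot show whether same-numbered libraries share an animal or culture. With the replicate block, 898 genes rose and 1386 fell, and 4 members rose and 7 fell: Ugdh was no longer called (0.55, adjusted p = 0.055), and Slc26a2 (-0.60, 0.049) and Chst3 (1.13, 0.050) were. With the replicate block and GC offsets, 5 members rose and 6 fell, and Csgalnact2 (0.05), Chsy1 (-0.06), Chpf (-0.03), Chpf2 (-0.16), Chst14 (-0.14), Papss2 (0.02), Ext1 (0.17) and Ndst1 (-0.13) changed sign.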

Other observations

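Other carriers and cutters of heparan sulfate, chosen after their values were seen, also moved in both directions. The glypican Gpc1 rose from 46.3 ± 1.58 to 72.1 ± 12.4 FPKM (SD, n = 3 each; log2 0.71 ± 0.12, adjusted p = 0.010, edgeR), while the glypican Gpc3 fell from 34.4 ± 1.31 to 25.8 ± 1.13 FPKM (-0.34 ± 0.08, adjusted p = 0.030). The syndecan Sdc3 rose from 39.2 ± 1.6 to 50.5 ± 5.81 FPKM (0.43 ± 0.10, adjusted p = 0.026). Heparanase (Hpse), which cuts heparan chains, rose from 9.18 ± 0.252 to 11.3 ± 0.158 FPKM (0.36 ± 0.09, adjusted p = 0.034). All 4 calls held with GC offsets. Without vehicle replicate 2 or 3, none of the calls of Gpc1, Gpc3, Sdc3 and Hpse held.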
